A study of Danio rerio with 17 samples.

Results

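A set of 21 genes was defined by RNA levels in sox10-high cells of zebrafish eye tumours, out of 31701 gene IDs counted in 17 libraries of sorted eye cells. Levels are counts scaled to a library total of 1000000 (CPM). A gene entered the set when its mean over the 4 tumour sox10-high libraries (Cancer_High) was at least 5 CPM and at least 8 times the mean of each other group. The level of each gene in Cancer_High therefore chose it, and for the members every comparison of Cancer_High with another group is given as a description with no test. Every fish had a transgene in which the sox10 promoter drives red fluorescent protein, and dissociated eye tissue was sorted on that colour. sox10 encodes a transcription factor of the neural crest and of glia.

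Control_Low, with 3 libraries, is the sox10-low fraction of fish with the reporter alone, aged 4.6 to 5.0 months. PreC_Low and PreC_High, with 3 libraries each, are the low and the high fraction of fish homozygous for the brca2 hg5 allele, labelled pre-cancerous and aged 4.5 to 4.7 months. Cancer_Low and Cancer_High, with 4 libraries each, are the same fractions of mutant fish with cancer, aged 7.5 to 10.4 months, in a model of malignant peripheral nerve sheath tumour, a cancer of the nerve sheath. High and Low libraries of one replicate number share a tissue in PreC and in Cancer, and a sox10-high fraction of control fish was not analysed here. Tissue codes differ among the replicates of a group, and 3 different ages are given among the Cancer replicates, but not every replicate is labelled as an animal of its own. The p-values below therefore refer to the spread among these libraries, which may be in part technical.

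Library totals ran from 58711787 to 87244522 counts, so that 3 counts correspond to 0.0344 to 0.0511 CPM. SOX10 (ENSDARG00000077467) was at 1502 to 1797 CPM in PreC_High, 704 to 1218 in Cancer_High, 10.7 to 23.9 in PreC_Low and 10.4 to 12.9 in Control_Low. In Cancer_Low 1 to 4 it was at 72.5, 14.6, 48.2 and 433 CPM, and the fourth of these libraries was left out of the choice of genes for that level. brca2 (ENSDARG00000079015) was at 5.94 to 25.0 CPM over all libraries, and counts per gene do not show its allele. Column names of the Cancer libraries end in an S with the numbers 10 to 17 and those of the others in 1 to 9. What this number stands for is not given in the labels. Cancer libraries hold 3361 to 4295 IDs with 3 to 20 counts against 632 to 2344 in the others. Whatever goes with this number, age and tumour stage cannot be told apart. Summed levels of 23 pigment cell markers were 3176 to 4364 CPM in PreC_High and 3479.7 to 8985 in Cancer_High. Summed levels of 14 oligodendrocyte markers were 8200.0 to 8941 CPM in PreC_High and 1039.9 to 1594 in Cancer_High. Macrophage and neutrophil markers summed to 242 to 351 CPM in PreC_High and 393 to 810 in Cancer_High. For photoreceptor and retinal neuron markers the sums were 1242 to 1492 and 28.4 to 60.5 CPM. The part of these cell types in the results was not tested, and in sorted bulk cells fewer cells of a type and less RNA per cell cannot be told apart.

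Several of the genes encode regulators that pattern the embryo. GBX2 and EN1 are homeobox transcription factors known for their part at the boundary of midbrain and hindbrain. PAX9 is a paired-box factor of the pharyngeal pouches, the sclerotome and the teeth, and nkx2.9 is a homeobox factor of the ventral neural tube. Other members act at membranes or in metabolism, such as SLC25A38, which carries glycine into mitochondria for haem synthesis, GRIN2A, a subunit of the NMDA type of glutamate receptor, TRPC4, a cation channel, and DBH, the enzyme that makes noradrenaline from dopamine.

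Of the 21 members, 10 have a proper gene symbol, 8 a symbol made from a genomic clone name and 3 only an ID. The members differed widely among the 4 tumours. The share of a member's summed Cancer_High CPM that came from its highest library ran from 30.1 to 100%, with a median of 80.0%. It was above 75% in 12 members and above 90% in 9, whereas the median over the 11201 genes with a Cancer_High mean of at least 5 CPM was 34.5% and 1.29% of those genes were above 75%. A rule on means with an 8-fold bar favours genes with 1 very high library, so these shares are not independent of the choice. The highest library was Cancer_High 1 for 8 members, Cancer_High 3 and 4 for 6 each and Cancer_High 2 for 1. No member passed both bars in each of the 4 tumours taken singly. EN1, shisa10.3, si:ch211-209n20.1 and si:rp71-1i20.1 passed them in 3 tumours, 5 members in 2 and 12 in 1. The name tumour sox10-high specific thus holds for the group means and, for most members, not for every tumour.

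**Figure D1:**
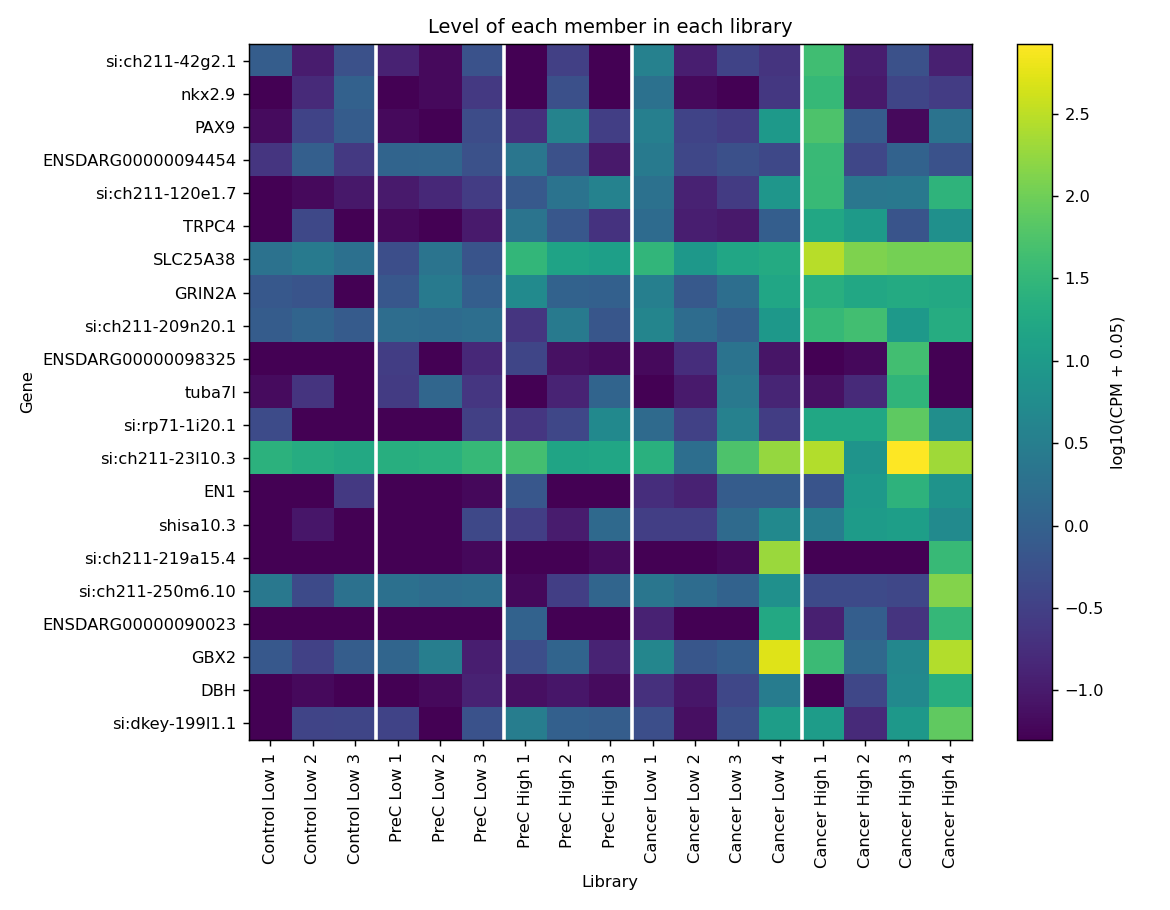
Levels of the 21 members (rows) in the 17 libraries (columns, by group), as log10 of CPM plus 0.05. Members are ordered by the Cancer_High library in which they were highest. Bright cells are mostly in 1 or a few of the 4 Cancer_High columns, and several recur in Cancer_Low 4.

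**Figure D2:**
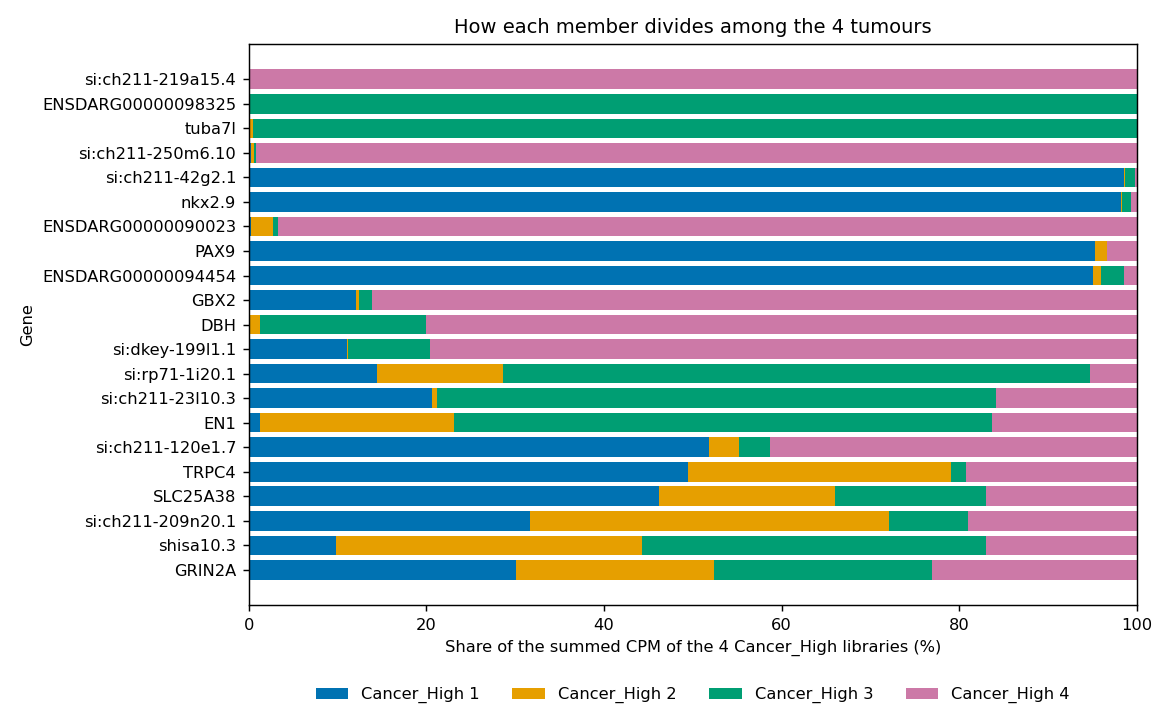
Share of each member's summed CPM over the 4 Cancer_High libraries that each library holds, in percent, as stacked bars from 0. The 12 upper bars are over 75% of 1 colour, and GRIN2A at the bottom is the most even, with 30.1% in its highest library.

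In 5 members every Cancer_High library was above all 12 libraries of the other groups that the rule used. They were SLC25A38, GRIN2A, shisa10.3, si:ch211-209n20.1 and si:rp71-1i20.1. Among all 11201 genes at 5 CPM, 2.38% were separated in this way. The rule chose the members on these same libraries, which favours such a separation, so the count is a description. With Cancer_Low 4 counted as well, 4 of the 5 stayed separated and shisa10.3 did not, beside 1.28% of the genes at 5 CPM.

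SLC25A38 (ENSDARG00000059805), the mitochondrial glycine carrier, was at 295, 127, 109 and 109 CPM in Cancer_High 1 to 4. It was at 31.7, 13.8 and 11.98 CPM in PreC_High, 0.462, 2.08 and 0.587 in PreC_Low, 1.89, 2.62 and 1.78 in Control_Low, and 29.8, 8.74, 15.9 and 18.8 in Cancer_Low. The 4 Cancer_High libraries did not overlap with any other, the 3 PreC_High libraries and the 4 Cancer_Low libraries lay at similar levels, and the 6 sox10-low libraries without cancer were lowest. The files hold another gene under the same symbol, ENSDARG00000074533, which was at 7.80 to 11.1 CPM in Control_Low, 10.3 to 14.7 in PreC_High, 11.6 to 19.9 in Cancer_High and 11.2 to 24.5 in Cancer_Low. Its Control_Low libraries lay just under both tumour groups, and PreC_High overlapped with Control_Low and with both tumour groups. Below, SLC25A38 means ENSDARG00000059805. Among other genes of mitochondrial glycine and haem synthesis, SHMT2 (ENSDARG00000104414), which makes glycine from serine in mitochondria, was at 74.1 to 119 CPM in Cancer_High and 25.8 to 41.9 in PreC_High. alas2 (ENSDARG00000038643), the first enzyme of haem synthesis in red cells, was at 0 to 0.365 CPM in Cancer_High, and ALAS1 (ENSDARG00000021059), its form in other cells, at 76.2 to 124. ALAS1 was at 57.9 to 91.1 CPM in PreC_High, 109 to 687 in Cancer_Low and 134 to 167 in Control_Low. GLDC (ENSDARG00000035120), of the same group of genes, was lower in Cancer_High, at 1.77 to 7.91 CPM, against 6.34 to 14.2 in PreC_High and 84.5 to 144 in Control_Low.

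GRIN2A (ENSDARG00000034493) was at 23.01, 16.97, 18.8 and 17.7 CPM in Cancer_High 1 to 4, the most even member. It was at 5.12, 1.01 and 0.938 CPM in PreC_High, 0.660, 2.55 and 0.880 in PreC_Low, 0.681, 0.583 and 0 in Control_Low, and 3.25, 0.709, 1.64 and 15.8 in Cancer_Low. Cancer_Low 4 came close to the tumour sox10-high level, and the other libraries stayed at or under that of PreC_High 1. NMDA receptors are built around GRIN1, and its zebrafish genes here were low in the same cells: ENSDARG00000025728 at 0.0274 to 0.334 and ENSDARG00000027828 at 0.0137 to 0.438 CPM in Cancer_High. In Control_Low those genes were at 59.9 to 152 and 49.9 to 55.3 CPM. Of 11 other NMDA receptor subunit genes, 8 were under 1 CPM in every Cancer_High library.

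shisa10.3 (ENSDARG00000095854) was at 2.99, 10.4, 11.8 and 5.16 CPM in Cancer_High 1 to 4, at 0.249, 0.258, 1.39 and 4.93 in Cancer_Low, and at 0 to 1.36 in the 9 libraries of PreC and Control. Its highest values were in Cancer_High, with Cancer_Low 4 inside their range. Of the other genes of that name, shisa10.2 (ENSDARG00000071543) was at 15.5 to 203 CPM in Cancer_High, 29.1 to 167 in Cancer_Low and 1.27 to 4.51 in PreC_High. shisa10.1 (ENSDARG00000013681) was at 111 to 199 CPM in Cancer_High, 140.0 to 314 in Cancer_Low and 57.4 to 78.2 in PreC_High, so that for both the tumour fractions overlapped. si:ch211-209n20.1 (ENSDARG00000099382) was at 34.2, 43.6, 9.65 and 20.6 CPM in Cancer_High, with 8.99 in Cancer_Low 4 and at most 4.06 elsewhere. si:rp71-1i20.1 (ENSDARG00000095401) was at 16.6, 16.2, 75.5 and 6.06 CPM in Cancer_High, and its next highest library was PreC_High 3 with 5.08. The files give no role for the last 2 genes.

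**Figure D3:**
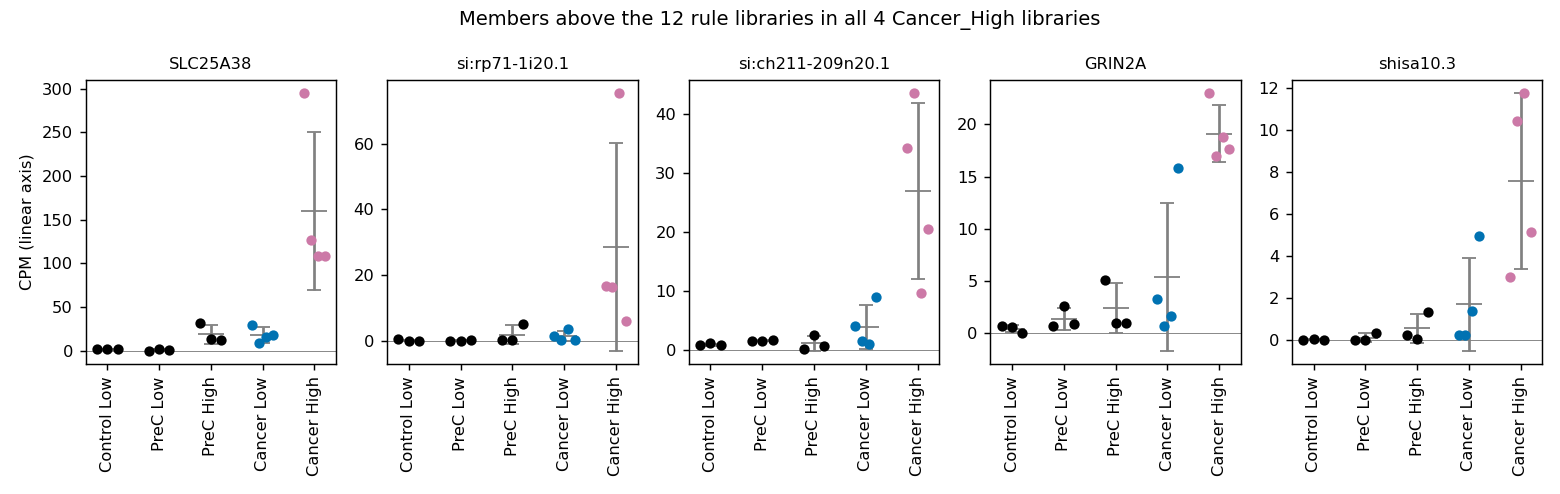
CPM in each library (points, linear axes with their own scales) of the 5 members whose 4 Cancer_High libraries were all above the 12 other libraries of the rule, with group mean and SD (grey, n = 3 or 4). Cancer_Low 4 is the upper point of Cancer_Low in GRIN2A, shisa10.3 and si:ch211-209n20.1.

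The 4 patterning factors were uneven among the tumours, with PAX9 and nkx2.9 highest in tumour 1, EN1 in tumour 3 and GBX2 in tumour 4. GBX2 (ENSDARG00000002933) was at 38.3, 1.28, 4.45 and 275 CPM in Cancer_High 1 to 4 and at 4.33, 0.619, 0.860 and 519 in Cancer_Low. In the 9 PreC and Control libraries it lay between 0.0638 and 3.202 CPM. The tissue of replicate 4 was thus highest in both fractions, and higher in the sox10-low one, while Cancer_High 2 lay within the range of the libraries without cancer.

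EN1 (ENSDARG00000014321) was at 0.576, 9.65, 26.8 and 7.19 CPM in Cancer_High 1 to 4. In Cancer_Low it was at 0.131, 0.0773, 0.802 and 0.812 CPM, and the 9 PreC and Control libraries lay between 0 and 0.649. Cancer_High 1 was lowest, just under PreC_High 1. Its relative en1b (ENSDARG00000098730) was at 3.16 to 10.8 CPM in Cancer_High, 1.83 to 3.22 in PreC_High and 0 in the 3 Control_Low libraries, with 8.13 in Cancer_Low 4.

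PAX9 (ENSDARG00000053829) was at 55.8, 0.779, 0.0128 and 1.97 CPM in Cancer_High 1 to 4, and at 3.22, 0.309, 0.229 and 9.71 in Cancer_Low. nkx2.9 (ENSDARG00000020332) was at 33.5, 0.0487, 0.334 and 0.232 CPM in Cancer_High, and at 1.82, 0.0129, 0 and 0.187 in Cancer_Low. Both were carried by tumour 1 among the sox10-high libraries, and in the other 3 they lay within the 0 to 3.84 and 0 to 0.986 CPM of the PreC and Control libraries. The PAX9 relatives PAX1 (ENSDARG00000008203 and ENSDARG00000073814) stayed at or under 0.342 CPM in Cancer_High, whereas the neural crest factor PAX3 (ENSDARG00000010192) was at 50.4 to 75.7 CPM there and 87.4 to 175 in PreC_High. Another gene under the symbol PAX3 (ENSDARG00000028348) was at 0.0262 to 0.0974 CPM in Cancer_High and 0.614 to 3.43 in PreC_High.

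PAX9 and nkx2.9 lie next to each other in the order of protein-coding genes in the RefSeq table of the zebrafish genome. This and the following comparison with neighbours were made after their values were seen, and only the order was used, since the table belongs to another build than the counts. Of the genes up to 5 places from PAX9, 6 others could be matched by symbol and passed the filter on low counts. Each of the 6 was highest in Cancer_High 1 among the tumour sox10-high libraries. slc25a21, the nearest, was at 40.2 CPM there and 8.39 to 20.3 in the other 3. mbip was at 47.0 against 11.5 to 28.0 CPM, plekhh1 at 14.2 against 2.76 to 4.92, and rps6ka5 at 13.5 against 1.11 to 2.05. mta1 was at 35.8 against 20.1 to 31.0 CPM and tmem229b at 1.09 against 0.292 to 0.451. In Cancer_Low 1 to 4, rps6ka5 was at 13.5, 10.95, 10.8 and 4.78 CPM. slc25a21, mbip, plekhh1 and mta1 were highest in Cancer_Low 4 among the Cancer_Low libraries, and tmem229b in Cancer_Low 3. In PreC_High, mta1 was at 35.9 to 47.3 CPM, not below its level in Cancer_High 1. In PreC_Low, rps6ka5 was at 16.4 to 29.6 CPM and tmem229b at 7.66 to 19.2, above their levels in Cancer_High 1. Over the 11201 genes at 5 CPM, 25.4% were highest in Cancer_High 1. Around the other members with a place in the table no such run was seen, with 0 of 7 neighbours of EN1, 2 of 4 of GBX2, 4 of 8 of GRIN2A, 3 of 8 of DBH, 2 of 5 of tuba7l and 1 of 4 of si:rp71-1i20.1 highest in the same tumour as the member.

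**Figure D4:**
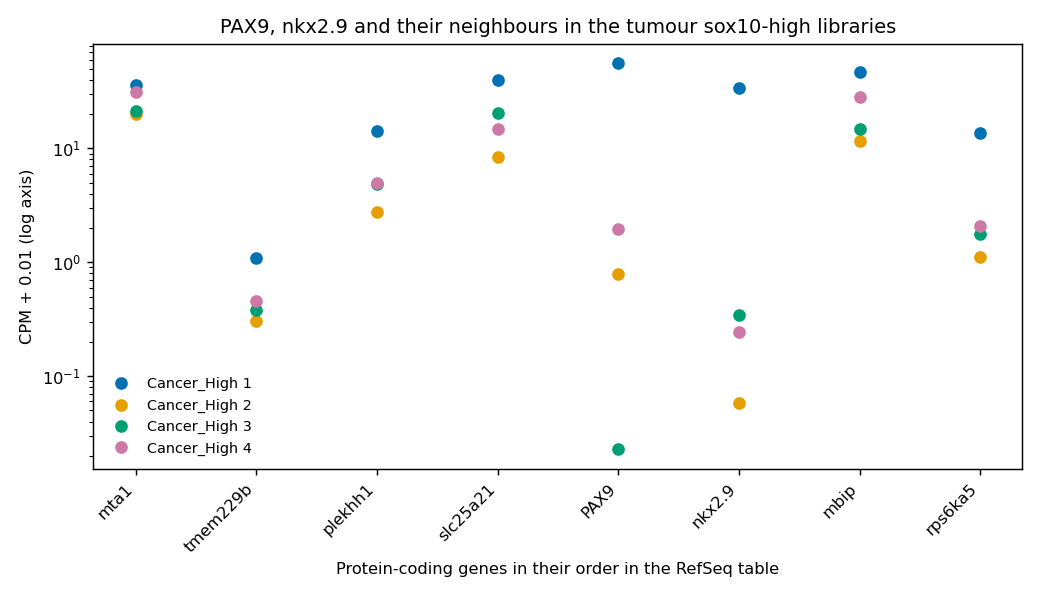
CPM plus 0.01 (log axis) of PAX9, nkx2.9 and the compared neighbours of PAX9 in the order of the RefSeq table, in the 4 Cancer_High libraries (colours). Cancer_High 1 is the top point at every gene, by 1.49 times the mean of the other 3 at mta1 and 8.24 times at rps6ka5.

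DBH (ENSDARG00000069446) was at 0, 0.353, 5.10 and 21.8 CPM in Cancer_High 1 to 4, and at 0.144, 0.0387, 0.344 and 2.96 in Cancer_Low. No PreC or Control library was above 0.0765 CPM, so tumours 3 and 4 stood out in the sox10-high cells. Of 7 other genes of catecholamine synthesis, transport and control, 6 were under 1 CPM in every Cancer_High library. Among them, TH (ENSDARG00000030621), which starts catecholamine synthesis, was at 0 to 0.0274 CPM. The exception was DDC (ENSDARG00000016494), the decarboxylase that makes dopamine and serotonin, at 4.75 to 44.1 CPM in Cancer_High, 3.71 to 13.6 in Cancer_Low, 1.61 to 2.62 in PreC_High, 15.6 to 27.7 in PreC_Low and 16.8 to 22.1 in Control_Low.

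TRPC4 (ENSDARG00000070507) was at 16.9, 10.1, 0.565 and 6.56 CPM in Cancer_High 1 to 4, and at 1.43, 0.0644, 0.0458 and 0.862 in Cancer_Low. In PreC_High it was at 2.07, 0.638 and 0.162 CPM, in PreC_Low at 0.0132, 0 and 0.0510, and in Control_Low at 0, 0.361 and 0. Tumour 3 overlapped with PreC_High and the other 3 tumours did not. A further gene under the symbol TRPC4 (ENSDARG00000102017) was at 0.134 to 2.03 CPM in Cancer_High. tuba7l (ENSDARG00000104643), an alpha tubulin-like gene, was at 28.7 CPM in Cancer_High 3, at 0.0262, 0.110 and 0 in Cancer_High 1, 2 and 4, at 2.49 in Cancer_Low 3, and at no more than 1.17 in any other library. How reads shared with other tubulin genes were counted is not given in the sources used here.

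The remaining 9 members, without a known role in the files, were mostly high in 1 tumour as well. si:ch211-23l10.3 (ENSDARG00000073998) was at 274, 7.49, 835 and 211 CPM in Cancer_High 1 to 4 and at 14.4 to 46.4 in the PreC and Control libraries, so that tumour 2 was below all of these. In Cancer_Low 1 to 4 it was at 23.9, 1.60, 54.6 and 181 CPM, the last being 0.858 times its Cancer_High 4 level. si:ch211-120e1.7 (ENSDARG00000094634) was at 35.2, 2.31, 2.39 and 28.1 CPM in Cancer_High and at most 3.69 in PreC and Control, where its highest library was PreC_High 3. si:dkey-199l1.1 (ENSDARG00000093616) was at 10.7, 0.110, 9.02 and 77.1 CPM in Cancer_High and at most 3.01 in PreC and Control.

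In tumour 4 alone among the sox10-high libraries were si:ch211-250m6.10 (ENSDARG00000097345) with 137 CPM, si:ch211-219a15.4 (ENSDARG00000068951) with 34.6 and ENSDARG00000090023 with 32.2. si:ch211-219a15.4 had 0 counts in the other 3 tumour sox10-high libraries, which allows up to 0.0393, 0.0365 and 0.0385 CPM in Cancer_High 1, 2 and 3. It was at 191 CPM in Cancer_Low 4 and at no more than 1 count in each of the other libraries, and it did not pass the filter on low counts because 2 libraries held nearly all of its counts. si:ch211-42g2.1 (ENSDARG00000097511) with 42.5 CPM and ENSDARG00000094454 with 35.9 were high in tumour 1, and ENSDARG00000098325 with 43.6 in tumour 3. Each of these was at or under 1.001 CPM in its other 3 Cancer_High libraries.

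The 8-fold bar left some members close to genes outside. Just inside it were si:ch211-42g2.1 at 8.37 times the next highest group mean, SLC25A38 at 8.34, ENSDARG00000094454 at 8.21, GRIN2A at 8.11 and si:ch211-120e1.7 at 8.03. Just outside were MYBPC3 at 7.90, csf1a at 7.78, GTF2F2 at 7.69, si:dkey-68o6.5 at 7.37 and ADCY2 at 7.33. The next highest mean was that of Cancer_Low 1 to 3 for 11 members, of PreC_High for 9 and of PreC_Low for 1.

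Most members were highest in the same tumour in both sorted fractions. In 14 of 21 members the highest Cancer_Low library came from the same tissue as the highest Cancer_High library, a pairing that the rule did not use. The rule did limit the mean of Cancer_Low 1 to 3 and not Cancer_Low 4. The choice of members thus bears on which Cancer_Low library is highest, and the counts are a description. Over the 11201 genes at 5 CPM this held for 37.2%. Of the 12 members with over 75% in 1 tumour it held for 11, against 98 of 133 other genes with such a share, or 73.7%. With the tissue of replicate 4 left out, an alternative added after the values were seen, it held for 14 of 15 members. It then held for 43.1% of genes, whatever their share in 1 tumour. PAX9 was the exception among the 12, with Cancer_Low 4 above Cancer_Low 1. For the members carried by tumour 1, Cancer_Low 1 was at 5.43 to 8.24% of the level of Cancer_High 1, and SOX10 was at 10.3% by the same measure. For those of tumour 3 it was 4.52 and 8.66% with SOX10 at 6.04%. For the 6 members of tumour 4 it ran from 4.72 to 551%, with SOX10 at 45.3%. Whether these counts come from sox10-high cells in the sox10-low gate was not tested.

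Cancer_Low 4, the library that the rule left out, held at least 8 times the mean of the other 3 Cancer_Low libraries in 7 of 21 members. The rule kept the mean of those 3 libraries low and set no limit on Cancer_Low 4, so the choice of members favours such ratios, and the count is a description. The ratio was reached in 2.71% of the genes at 5 CPM in Cancer_High and 2.89% of all genes. At least 4 times that mean was reached in 12 members, beside 7.26% and 6.19%. The 7 were GBX2, GRIN2A, DBH, si:ch211-120e1.7, si:dkey-199l1.1, si:ch211-219a15.4 and ENSDARG00000090023. SOX10 in this library was 9.60 times the mean of the other 3 and 45.3% of Cancer_High 4. GRIN2A reached 0.896 and shisa10.3 0.957 times its Cancer_High 4 level, whereas SLC25A38 reached 0.173, EN1 0.113 and si:ch211-250m6.10 0.0472. In 6 members Cancer_Low 4 was above Cancer_High 4: GBX2, PAX9 and si:ch211-219a15.4, and, at under 0.2 CPM in both, si:ch211-42g2.1, tuba7l and ENSDARG00000098325. Pigment cell markers summed to 3693 CPM in Cancer_Low 4 and 409.7 to 1207 in the other 3, oligodendrocyte markers to 553 and 126 to 207, and macrophage and neutrophil markers to 3763 and 7833 to 12500.5. Their part in the result was not tested.

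**Figure D5:**
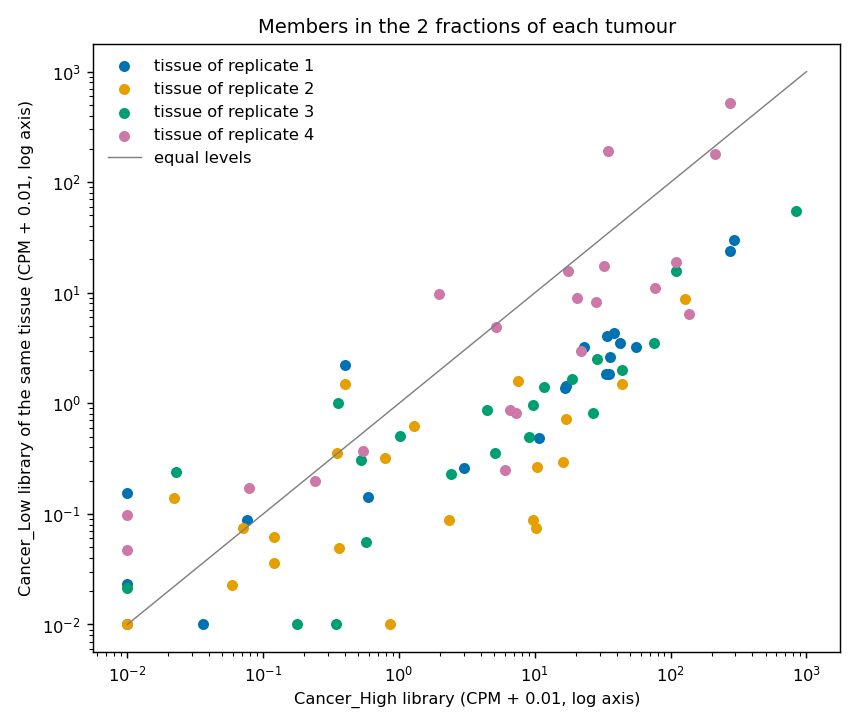
CPM plus 0.01 of the 21 members in each Cancer_High library (x, log axis) and in the Cancer_Low library of the same tissue (y, log axis), by tissue (colours), with a grey line of equal levels. Most points above 1 CPM in Cancer_High lie under the line, and those above it belong to the tissue of replicate 4.

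The sox10-low groups and the pre-cancerous fractions were compared with each other across all genes. The rule set each of these groups against Cancer_High only, but the comparisons with Cancer_Low are not independent of the choice of members. Of the 21 members, 20 passed the filter on low counts, and a member can pass it through its Cancer libraries alone. Cancer_Low was above Control_Low in 6 of the 20 members and below it in 0, while 17.2% of the 23299 genes tested were higher and 15.5% were lower. The median log2 fold change was 3.18 over the members and 0.16 over all genes. The rule limited Control_Low and PreC_Low and not Cancer_Low 4, and the tissues of Cancer_Low are those of Cancer_High. The choice of members thus favours a positive median, from which nothing is read. It also favours higher levels in Cancer_Low than in Control_Low or PreC_Low for single members, and the p-values below carry this limit.

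SLC25A38 rose in Cancer_Low against Control_Low, with a log2 fold change of 3.05 ± 0.59 (SE) and an adjusted p of 0.000918. The 4 and 3 libraries did not overlap, and the call was kept without any 1 library. si:ch211-120e1.7 rose from 0, 0.0139 and 0.0423 CPM to 1.85, 0.0773, 0.218 and 8.17 CPM (log2 fold change 6.87 ± 1.74, adjusted p = 0.00639). Its libraries did not overlap, but only by 3 counts in Control_Low 3 against 6 in Cancer_Low 2. Its adjusted p was 0.115 by limma voom with the tissue as a random effect. The call also ended with the replicate number as a block in a fit of only the compared groups. shisa10.3 also rose (log2 fold change 6.64 ± 1.92, adjusted p = 0.0141), on 3 counts in Control_Low. The ratio of its summed counts per library total was 116, with an exact 95% interval of 39.6 to 565 for counting error alone. Its adjusted p was 0.0557 without Control_Low 1 and 0.0603 without Control_Low 3.

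GBX2, GRIN2A and DBH passed the test through Cancer_Low 4. For GBX2 the log2 fold change was 7.70 ± 2.63 and the adjusted p 0.0341, and 0.434 without Cancer_Low 4. For GRIN2A they were 3.55 ± 1.20 and 0.0316, and 0.136 without that library. For DBH they were 6.98 ± 2.40 and 0.0342, on 281 counts in Cancer_Low and 1 count in Control_Low, and the adjusted p was 0.109 without Cancer_Low 4. For DBH the same ratio was 177, with an interval from 31.4 to 6998. Each of the 3 calls also ended without any 1 of the Control_Low libraries, with adjusted p-values of 0.0564 to 0.111.

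Against PreC_Low, Cancer_Low was higher in 2 of the 20 members and lower in 0, beside 7.95% and 11.1% of all genes. SLC25A38 rose by a log2 fold change of 4.13 ± 0.63 (adjusted p = 0.000228), with no overlap between the libraries. si:ch211-120e1.7 rose from 0.0528, 0.101 and 0.230 CPM (log2 fold change 4.34 ± 1.45, adjusted p = 0.0456), with Cancer_Low 2 and 3 inside that range. This call ended without Cancer_Low 1 (0.0598), Cancer_Low 4 (0.172) or any 1 PreC_Low library (0.0685 to 0.152). Both comparisons of Cancer_Low use the same 4 libraries.

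Before cancer, 0 of the 20 members were called between PreC_Low and Control_Low, beside 0.777% of genes higher and 0.296% lower. Only 11 members had enough counts to pass the filter on these 2 groups alone, and ENSDARG00000090023 was at 0 in all 6 libraries, so a difference was not detectable for many members. By edgeR 0 members had an unadjusted p under 0.05. By DESeq2, which gave a p-value for only 13 members, 0 were called. Sox10-high cells of pre-cancerous eyes were above their sox10-low cells in 2 members and below in 0, beside 9.28% and 22% of all genes. Only 14 members passed the filter on these 2 groups alone, and many were near 0 in PreC_Low, where a lower level in PreC_High could hardly be detected. The choice of genes high in a sox10-high fraction may also favour this direction, so the 2 counts are a description. SLC25A38 rose (log2 fold change 4.06 ± 0.64, adjusted p = 0.000196), with PreC_High libraries all above PreC_Low, and did so in every fit run. TRPC4 rose on 224 counts against 5 (log2 fold change 5.25 ± 1.87, adjusted p = 0.0412), also with no overlap. Its adjusted p was 0.0676 when only these 2 groups were fitted, 0.208 when the shared tissue was added to that fit as a block and 0.082 by limma voom with the tissue. It was 0.125 without PreC_High 1, 0.0521 without PreC_High 2 and 0.0552 to 0.12 without 1 PreC_Low library.

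The choice of genes was repeated from 3 Cancer_High libraries at a time and looked up in the fourth. The 4 rounds gave 91 choices, in which most genes recur, so these are not 91 different genes. In 15 of the 91 choices the gene also had at least 5 CPM and 8 times each group mean in the library left out. This was 4 of 18 for Cancer_High 1, beside 0.132% of all genes, 5 of 30 for Cancer_High 2 (0.0662%), 3 of 22 for Cancer_High 3 (0.177%) and 3 of 21 for Cancer_High 4 (0.151%). The same group means served for the choice and for the library left out. Chosen genes thus had low means beforehand, which favours them over all genes, and the shares are a description. EN1, shisa10.3 and si:ch211-209n20.1 were chosen each of 4 times and held in 3. PAX9, nkx2.9, SLC25A38, GRIN2A and tuba7l were chosen 3 times each and held in none, SLC25A38 and GRIN2A because the library left out was below 8 times the PreC_High mean.

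The members were set beside lists of genes that were chosen with earlier results of these data known. The list of homeobox factors did not name the 4 patterning factors, so how many lists contain members depends on how they were written. Of 16 lists of gene families and pathways, 1 contained members, the ion channels and neurotransmitter receptors with TRPC4 and GRIN2A, and none of 14 lists of cell type markers contained any. Of the other 116 ion channel and receptor genes tested, 4 were higher and 12 lower in Cancer_High than in PreC_High, where 4.91% and 5.24% of all genes were higher and lower. TRPC6 (ENSDARG00000056625), a channel of the same family as TRPC4, was among the higher ones, at 1.38 to 15.8 CPM in Cancer_High and at 0 in the 3 PreC_High libraries. It was at 4.88 to 15.1 CPM in Cancer_Low and 0.884 to 2.11 in PreC_Low, so that the tumour fractions overlapped. The family did not rise as a whole. Another gene under the symbol TRPC6 (ENSDARG00000067730) was at 0.0547 to 0.878 CPM in Cancer_High and 0 to 1.17 in PreC_High. TRPC1 (ENSDARG00000061203) was at 0.123 to 0.873 CPM in Cancer_High and 1.61 to 2.92 in PreC_High. Of 56 tested genes of a list of developmental homeobox and T-box factors, which did not name the 4 patterning factors above, 0 were higher in Cancer_High than in PreC_High and 3 were lower. These 3 were TBX3 (ENSDARG00000002216, log2 fold change -7.12 ± 0.54, adjusted p = 8.61e-07), PRRX1 (ENSDARG00000033971, -3.55 ± 0.45, adjusted p = 6.83e-05) and LHX2 (ENSDARG00000031222, -5.78 ± 1.55, adjusted p = 0.0246). Against Cancer_Low, 5 of the 56 were higher and 17 lower, beside 10.5% and 17.9% of all genes.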

How the data were processed

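RNA-seq counts per gene were deposited by the authors as whole numbers for 31701 Ensembl IDs in 17 libraries. The build danRer10 and the tools STAR, HTSeq, FastQC and DESeq2 come from the submitters' processing notes. The sources used here do not give their versions or how strand was counted. Part of the genotype is not reported here. CPM are counts divided by the library total, times 1000000. Tests came from the quasi-likelihood method of edgeR 4.0.16 (in R 4.3.3, with limma 3.58.1), fitted once to all 17 libraries with TMM factors and filterByExpr (at least 10 counts, 15 in total), which kept 23299 genes. Benjamini-Hochberg adjusted p under 0.05 counts as called. Each SE is the absolute log2 fold change divided by the square root of the F statistic of that test, and is approximate, above all at few counts. The fit was also run on simulated data in which no gene with few counts in PreC_Low was changed. That run does not bear on calls that rest on few counts, and nothing is read from it here. Symbols matched 26237 IDs.

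The members and the lists were chosen with earlier results of these data known. Of 1329 list symbols, 1221 matched. Named genes are members with proper symbols that rank high by level, separation or share, those at the 8-fold bar, called members and those highest in Cancer_Low 4. Members known by clone names or IDs, relatives and neighbours were added after their values were seen. Tissue codes in the labels pair High with Low libraries. Residuals of the pairs correlated at 0.306 to 0.426 in Cancer and at 0.0229, -0.00862 and 0.075 in PreC. Alternatives were other scalings, filters, thresholds, DESeq2 1.42.0, limma voom with the tissue, fewer groups, a replicate block and each library left out. Intervals and floors cover counting error only.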

Additional observations from a re-analysis of the deposited data

Results flagged for a closer look

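A Dixon test at the 95% level was run on the 21 members in the 4 Cancer_High and in the 4 Cancer_Low libraries, 42 groups of values. It marked 1 library as far above the other 3 in 24 of them, 13 in Cancer_High and 11 in Cancer_Low, over 15 genes. Chance marks about 1 in 20 groups when values follow a normal distribution, which was not checked for these CPM. The choice of members by a mean favours such genes in Cancer_High. The rule also set no limit on Cancer_Low 4, which holds 6 of the 11 marks in Cancer_Low, so the counts are a description.

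In Cancer_High 1 these were SLC25A38 (ENSDARG00000059805) at 295 CPM, PAX9 at 55.8, si:ch211-42g2.1 at 42.5, ENSDARG00000094454 at 35.9 and nkx2.9 at 33.5. In Cancer_High 3 they were si:rp71-1i20.1 at 75.5 CPM, ENSDARG00000098325 at 43.6 and tuba7l at 28.7. In Cancer_High 4 they were GBX2 at 275 CPM, si:ch211-250m6.10 at 137, si:dkey-199l1.1 at 77.1, si:ch211-219a15.4 at 34.6 and ENSDARG00000090023 at 32.2.

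In the sox10-low cells, Cancer_Low 1 stood apart for si:ch211-42g2.1 at 3.50 CPM, ENSDARG00000094454 at 2.61 and nkx2.9 at 1.82. Cancer_Low 3 did so for tuba7l at 2.49 CPM and ENSDARG00000098325 at 1.97. Cancer_Low 4 did so for GBX2 at 519 CPM, si:ch211-219a15.4 at 191, ENSDARG00000090023 at 17.4, GRIN2A at 15.8, si:dkey-199l1.1 at 11.03 and DBH at 2.96. No library of tumour 2 was marked.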

How the results depend on the processing

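The rule gave 79 genes at a 4-fold bar, 6 at a 16-fold bar, 13 at a minimum of 10 CPM and 0 when the lowest Cancer_High library was used, against 21 as reported. It gave 29 on TMM-scaled totals, 23 on DESeq2 size factors and 17 to 30 without 1 library. With Cancer_Low 4 included it gave 14, of which 11 were shared. EN1, shisa10.3 and si:ch211-209n20.1 were kept in each of the 16 fits of the rule without 1 library. Of the 91 choices made without 1 tumour, in which genes recur, 27 held at a 4-fold bar in the library left out, against 15. In Cancer_Low 4, 12 members passed a 4-fold bar, against 7.

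Members called in Cancer_Low against Control_Low were 3 by limma voom, and 2 to 7 without 1 library. In Cancer_Low against PreC_Low they were 8 by DESeq2, 1 with no filter and 1 to 3 without 1 library. In PreC_High against PreC_Low they were 1 by limma voom and 1 to 3 without 1 library, and in PreC_Low against Control_Low 0 in every fit. DESeq2 gave a p-value for only 13 members. In Cancer_Low against PreC_Low it called 27.6% of all genes, against 19.1% in the main fit. limma voom called 35.9% of genes in Cancer_Low against Control_Low and 42.8% in PreC_High against PreC_Low. Fits of only the compared groups called 4, 2 and 2 members in the first 3 comparisons, and the replicate number as a block in those fits left 1 in each, SLC25A38 (ENSDARG00000059805). The number marks a shared tissue only in PreC_High against PreC_Low, where the block ended the call of si:ch211-120e1.7 (adjusted p from 0.0412 to 0.0985), which is not called with all libraries, while TRPC4 (ENSDARG00000070507) was not called in either of these fits. The cause of these shifts was not tested.

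Depth limits the members at few counts: DBH had 1 count in Control_Low, shisa10.3 had 3 and si:ch211-120e1.7 had 4, so their fold changes are loosely set.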
